A study of Mus musculus with 4 samples.

Results

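CpG methylation was examined at 10 planar cell polarity genes in 4 mouse embryonic brains at stage E11.5, midway through gestation. The genes were Vangl1, Vangl2, Celsr1, Celsr2, Fzd3, Fzd6, Dvl2, Prickle2, Scrib and Ptk7, a list made by name for the part of the pathway in neural tube closure, out of 20807 protein-coding genes on chromosomes 1 to 19. All 10 were found in the annotation, and none lies on chromosome 10, where Tet1 lies. Each gene was divided into the core promoter, within 1 kb of the start site on either side, the flank, from 1 to 3 kb on either side, and the gene body, which is the rest of the annotated span. The start site was the annotated 5′ end of the gene.

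Planar cell polarity is the alignment of cells within the plane of a tissue. Vangl, Celsr and Frizzled proteins sit in the cell membrane and form complexes of different make-up at opposite borders of each cell, while Dishevelled and Prickle proteins bind them from the cytoplasm. In the neural plate the pathway drives the convergent extension movements that narrow and lengthen the tissue before the neural folds meet. Mutations of Vangl2, Scrib, Ptk7 and Celsr1 in mice leave the neural tube open along much of its length, a defect called craniorachischisis. At E11.5 the tube of a normal embryo has already closed. CpG islands at the start sites of such genes are usually unmethylated and are bordered by shores, where the methylation level climbs to that of the surrounding DNA. Tet1 encodes a dioxygenase that oxidises 5-methylcytosine, the first step of active demethylation.

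The embryos were males of the 129S6.cg Tet1<tm1Koh> line, wild type (WT) or knockout (KO) for Tet1. Their Tet1 heterozygous dams were kept for at least 4 weeks on a diet with excess folic acid (FA, 30 ppm) or on the control diet (3 ppm), and both diets also held the antibiotic succinylsulfathiazole. The KO allele carries an insertion at the start of the Tet1 coding sequence, made in B6 and backcrossed to 129S6, so methylation of Tet1 does not check the label. There was 1 library per group, from 1 brain each, taken from the forebrain to the hindbrain. Embryos with these numbers also stand in a sample list that the study gives for a different assay. There the KO pair is listed with a neural tube defect and the WT pair as normal, and the numbers place the 4 embryos in 4 litters. Genotype, phenotype and litter can therefore not be told apart here, and neither can diet and litter. The whole brain is a mixture, so a shift in cell types and a change within cells cannot be told apart either. The tables hold no RNA, and the brain label was not checked against markers. Bisulfite also reads 5-hydroxymethylcytosine as methylated, so the levels below are the sum of both marks.

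Mean depth per listed autosomal CpG ranged from 13.2 reads in KO at 30 ppm to 21.2 reads in KO at 3 ppm, and 14907672 CpGs had at least 5 reads in all 4 libraries. Methylation levels were the share of methylated reads summed over these CpGs in a region. Intervals in brackets are 95% Wilson intervals, which cover counting error only, and no value has an SD. A region was called when Fisher's exact test, two-sided and with Benjamini-Hochberg adjustment over all genes tested, gave an adjusted p under 0.05 and the levels differed by at least 10 percentage points (points below). Such a test compares 2 libraries and not 2 conditions, and it counts a read again at each CpG it covers, so its p-values can be too small. Differences are KO minus WT unless stated otherwise.

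Coverage of the start sites was thin. In the core promoters the share of reference CpGs that had 5 reads in all 4 libraries was 1.75% at Ptk7, between 8.87% and 21.4% at 8 genes and 55.1% at Vangl2. The median over all genes was 41.6%, and over the 5240 genes with at least 100 CpGs in the core it was 16.5%. Flanks were covered better, from 17.9% of CpGs at Vangl2 to 100% at Prickle2, and bodies from 50.8% at Dvl2 to 94.0% at Fzd3. The CpG islands over the start sites of Celsr2, Scrib and Ptk7 held no CpG with 5 reads, so a core value there describes the edges of the island.

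**Figure D1:**
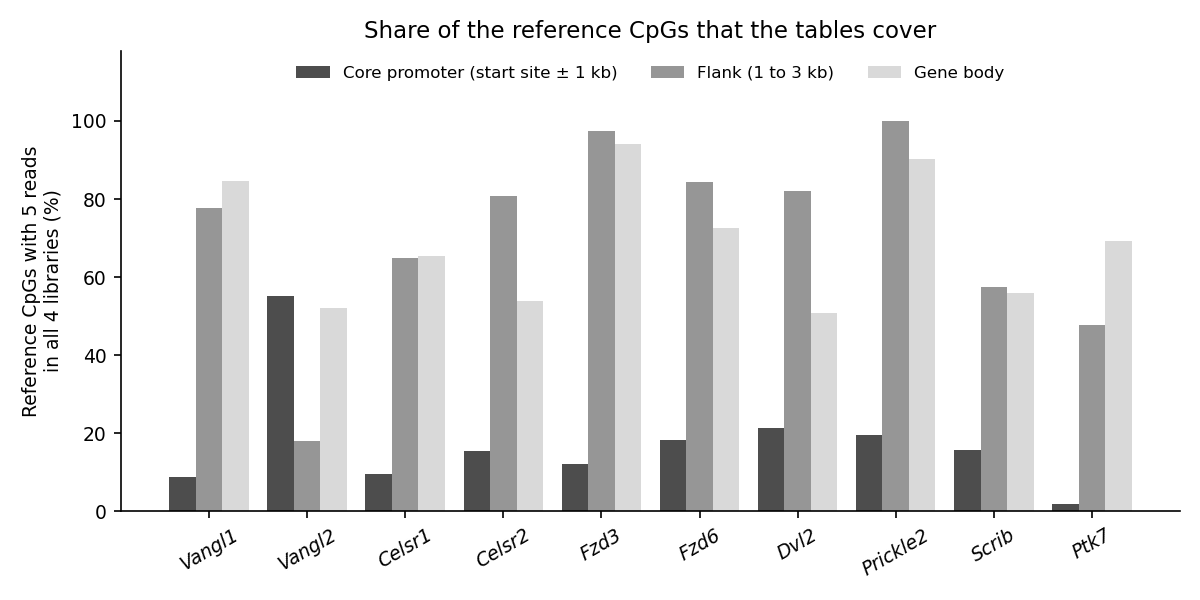
Bars give the percent of the CpGs in the reference sequence that had at least 5 reads in all 4 libraries, for the core promoter, the flank and the body of each gene. Core promoters stand lowest in 9 of 10 genes, and at Vangl2 the core (55.1%) stands above the flank (17.9%).

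The 5 stretches below show where KO and WT stood apart. They were picked after the values were seen, each lies at the edge of an unmethylated stretch next to a start site, none overlaps an exon of its gene, and none carries a test. They are printed 5′ to 3′ on the transcribed strand of GRCm38.p6, in lower case with every CpG in capitals. Vangl2 is shown from 300 to 1 bases upstream of its start site (chr1:172028445-172028744, minus strand). Vangl1 is shown further upstream (chr3:102205794-102206073, minus strand), within the overlapping gene Gm16160. Prickle2 is shown downstream of its start, in an intron (chr6:92704805-92705100, minus strand). Scrib is shown downstream, in an intron (chr15:76068714-76068939, minus strand). Fzd6 is shown downstream, in an intron (chr15:39006959-39007194, plus strand).
Vangl2: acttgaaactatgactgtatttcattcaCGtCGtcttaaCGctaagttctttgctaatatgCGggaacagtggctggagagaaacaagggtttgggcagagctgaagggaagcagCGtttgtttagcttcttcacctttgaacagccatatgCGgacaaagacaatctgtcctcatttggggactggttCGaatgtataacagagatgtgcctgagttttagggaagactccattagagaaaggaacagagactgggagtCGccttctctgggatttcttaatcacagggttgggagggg
Vangl1: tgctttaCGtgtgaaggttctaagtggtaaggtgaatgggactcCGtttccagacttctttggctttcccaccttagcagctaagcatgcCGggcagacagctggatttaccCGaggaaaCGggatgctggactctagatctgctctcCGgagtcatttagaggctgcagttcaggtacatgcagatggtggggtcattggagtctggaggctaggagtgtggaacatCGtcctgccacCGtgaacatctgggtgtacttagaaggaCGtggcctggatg
Prickle2: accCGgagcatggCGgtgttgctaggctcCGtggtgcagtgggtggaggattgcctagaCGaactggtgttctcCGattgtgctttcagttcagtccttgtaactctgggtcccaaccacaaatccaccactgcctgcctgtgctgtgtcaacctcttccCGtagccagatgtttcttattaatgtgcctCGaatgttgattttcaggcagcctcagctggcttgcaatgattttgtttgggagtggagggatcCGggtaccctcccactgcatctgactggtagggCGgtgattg
Scrib: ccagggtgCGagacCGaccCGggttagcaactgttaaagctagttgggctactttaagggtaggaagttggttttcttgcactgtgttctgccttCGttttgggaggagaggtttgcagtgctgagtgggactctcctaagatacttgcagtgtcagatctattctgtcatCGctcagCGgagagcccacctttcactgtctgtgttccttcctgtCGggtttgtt
Fzd6: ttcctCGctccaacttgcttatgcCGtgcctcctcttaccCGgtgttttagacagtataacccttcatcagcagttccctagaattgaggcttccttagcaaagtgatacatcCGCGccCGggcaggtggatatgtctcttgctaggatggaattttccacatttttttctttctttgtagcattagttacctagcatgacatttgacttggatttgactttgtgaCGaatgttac

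In the Vangl2 stretch 7 of the 8 CpGs were covered, and their summed level was 53.6% in KO against 22.6% in WT under excess FA and 60.6% against 24.1% under control FA. All 7 were higher in KO than in WT at both diets. The CpG 147 bases before the start site stood at 87.5% in KO against 50.0% in WT under excess FA and at 61.9% against 37.5% under control FA. The 9 CpGs of the Vangl1 stretch had 47.4% in KO against 23.7% in WT under excess FA and 56.3% against 13.4% under control FA, with 7 and 9 of them higher in KO. In the Prickle2 stretch the levels were 65.0% in KO against 35.8% in WT under excess FA and 66.1% against 14.5% under control FA, with 8 and 9 of 9 CpGs higher in KO. The Scrib stretch stood at 30.0% in KO against 19.6% in WT under excess FA and at 39.5% against 17.6% under control FA, the lowest KO levels of the 5 stretches, with 5 and 7 of 7 CpGs higher in KO. The Fzd6 stretch had 62.7% against 34.3% under excess FA and 49.4% against 34.7% under control FA, with 7 and 5 of 7 higher in KO. Single CpGs rest on 5 to 34 reads per library, so their levels are coarse.

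The first comparison asked what loss of Tet1 went with at the core promoters, of which 9 could be tested, since Ptk7 had 2 CpGs and the minimum was 3. Vangl2 and Fzd6 were called higher in KO at both diets and Fzd3 at 3 ppm, and none was called lower. Of all 19924 core promoters tested, 15.4% were called higher and 0.331% lower at 30 ppm, and 16.6% higher and 0.381% lower at 3 ppm. At both diets 8.01% of all cores were called higher. With 9 cores, the 2 and 3 called are too few to set apart from that background. The 9 cores had median differences of 5.64 and 8.29 points at 30 and 3 ppm, beside 3.93 and 3.31 points over all genes. KO exceeded WT at 7 of the 9 at 30 ppm and at 9 of the 9 at 3 ppm, where 77.3% and 75.0% of all cores did.

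Among the membrane proteins, Vangl2 had the widest core difference of the list. Vangl2, the membrane protein mutated in the looptail mouse, stood at 48.5% [42.5 to 54.5] in KO against 31.6% [26.9 to 36.7] in WT under excess FA. At 3 ppm it stood at 49.1% [45.0 to 53.2] in KO and 31.1% [26.5 to 36.2] in WT. The KO and WT intervals did not overlap at either diet, and the WT levels of the diets differed by 0.485 points. KO exceeded WT by 16.9 points at 30 ppm (adjusted p = 0.000437, Fisher's exact test) and 18.0 points at 3 ppm (adjusted p = 2.54e-06, Fisher's exact test), over 27 CpGs. Within 0.5 kb of the start site it was 33.9 points (50.8% against 17.0%) and 28.8 points (51.3% against 22.5%). Counting CpGs of 10 or more reads left 10 of them, with 13.1 and 11.2 points, and the calls were lost. The annotated principal transcript begins 1149 bp further downstream, and around that start the core stood at 9.09% in KO against 1.83% in WT under excess FA and at 9.55% against 3.40% under control FA, with no call. The core of its paralogue Vangl1 was nearly unmethylated, between 3.08% and 7.62% in the 4 libraries, and was not called.

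The Celsr genes encode large cadherins that bind each other across cell borders. The covered core of Celsr1 was low, at 7.63% in KO against 2.36% in WT under excess FA and at 2.67% against 1.95% under control FA. That of Celsr2, which lies outside its island, was high, at 88.0% against 82.4% under excess FA and at 92.2% against 87.4% under control FA. Neither was called at either diet.

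The Frizzled receptors Fzd3 and Fzd6 act redundantly in closure of the mouse neural tube. Fzd6 stood at 34.7% [27.5 to 42.6] in KO against 20.9% [16.1 to 26.6] in WT under excess FA and at 25.9% [21.3 to 31.2] against 15.1% [10.9 to 20.7] under control FA. By Fisher's exact test both differences, 13.8 and 10.8 points, passed (adjusted p = 0.0238 and 0.0188). They rest on 18 CpGs. With a minimum of 10 reads 3 CpGs remained and the difference turned to -8.97 points at 30 ppm and was 4.93 points at 3 ppm, with both calls lost. The mean over single CpGs was 10.4 and 6.83 points, and thinning the libraries to equal depth lost the call at 3 ppm (10.9 points, adjusted p = 0.0704, Fisher's exact test). Around the principal start, 299 bp downstream, Fzd6 differed by 20.9 and 11.3 points and stayed called at both diets. Within 0.5 kb of the start it differed by 5.24 and 7.56 points and both calls were lost, and with no read minimum the 30 ppm value was 9.26 points and not called. Fzd3 stood at 24.5% in KO against 15.7% in WT under excess FA and at 28.1% against 16.9% under control FA. Its difference was called at 3 ppm (11.2 points, adjusted p = 0.00829) and not at 30 ppm (8.82 points, adjusted p = 0.135, both Fisher's exact test), and the call at 3 ppm was lost after thinning (9.18 points), within 0.5 kb of the start (9.07 points) and with no read minimum (8.45 points). As the mean over single CpGs it was 6.11 points at 3 ppm. At Fzd3 the diets' values did not differ by the Wald test (adjusted p = 0.956), which does not show that they were alike.

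Of the cytoplasmic partners, Prickle2 stood at 50.0% in KO against 36.4% in WT under excess FA and at 38.4% against 29.2% under control FA. Its differences of 13.6 and 9.24 points did not pass (adjusted p = 0.132 and 0.176, Fisher's exact test). With no read minimum the 30 ppm value was 15.7 points and was called. Dvl2, a Dishevelled protein that relays Frizzled signals, was the sole core that was lower in KO by more than 1 point, with 40.3% in KO against 49.3% in WT under excess FA. At 3 ppm Dvl2 stood at 45.8% in KO and 39.3% in WT, and neither value was called. The mean over single CpGs of Dvl2 was 4.71 points higher in KO at 30 ppm, the opposite sign to the summed reads. Scrib, a scaffold of the basolateral membrane that binds Vangl2, stood at 82.9% against 79.3% under excess FA and at 83.1% against 74.8% under control FA. Its 8.29 points at 3 ppm had an adjusted p of 0.0361 by Fisher's exact test and stayed under the 10 points required. As the mean over single CpGs the Scrib value at 3 ppm was 10.5 points. The core window of Dvl2 takes in the 3′ end of the gene Phf23, and that of Scrib the 3′ end of Puf60.

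**Figure D2:**
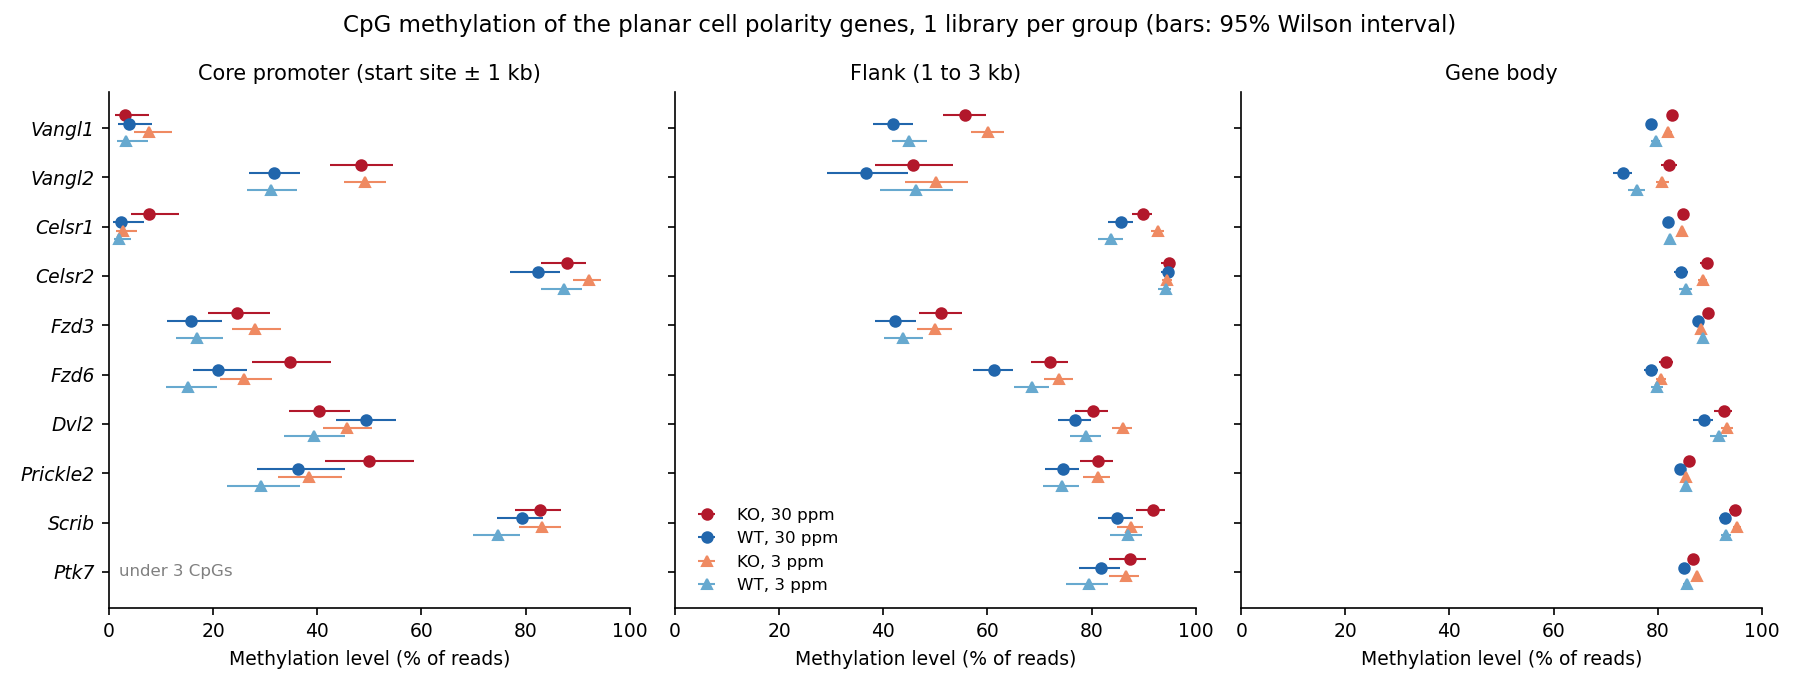
Points give the methylation level in percent of reads for each gene, with 95% Wilson intervals, in the core promoter, the flank and the body. KO libraries are red and orange, WT libraries are blue, circles are 30 ppm and triangles 3 ppm. The KO and WT points of Vangl2 are apart in the core, those of Vangl1 in the flank, and bodies lie between 73.3% and 95.3% in every library.

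In the flanks KO exceeded WT at all 10 genes in both diets, while 78.3% of all flanks did so at 30 ppm and 67.9% at 3 ppm. Vangl1 was called higher in KO at both diets and Fzd6 at 30 ppm, and none was called lower. Over all 20368 flanks, 9.50% were called higher and 0.103% lower at 30 ppm, and 7.05% higher and 0.128% lower at 3 ppm, and 3.50% were called higher at both. With 10 flanks, the 2 and 1 called are too few to set apart from that background. The 10 flanks had median differences of 6.83 and 6.49 points at 30 and 3 ppm, beside 3.01 and 1.69 points over all genes. The flanks of the 10 genes held a median of 42 covered CpGs, against 31 over all genes. Genes with and without a CpG island at the start site enter the differences over all genes. No set of genes with like promoters was compared.

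Vangl1, which can stand in for part of the function of Vangl2, had 55.6% [51.4 to 59.7] in KO against 41.8% [38.0 to 45.7] in WT under excess FA. At 3 ppm Vangl1 had 60.1% [56.9 to 63.2] in KO and 45.0% [41.7 to 48.3] in WT. Both KO levels lay above both WT levels, with intervals apart. By Fisher's exact test both differences, 13.8 and 15.1 points over 45 CpGs, passed (adjusted p = 6.84e-05 and 1.65e-08). Upstream of the start site KO exceeded WT by 6.64 points under excess FA and 21.9 under control FA, and downstream by 15.5 and 7.54. For the whole flank of Vangl1 the Wald test between the diets did not pass (adjusted p = 0.924).

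Fzd6 had 72.0% in KO against 61.2% in WT under excess FA, or 10.9 points more (adjusted p = 0.00111, Fisher's exact test). At 3 ppm Fzd6 had 73.8% and 68.5%, and 5.24 points were not called (adjusted p = 0.0840, Fisher's exact test). A Wald test between the diets did not pass there (adjusted p = 0.566). Around the principal start the flank of Fzd6 differed by 7.15 points at 30 ppm and was not called. Celsr1 had 92.8% in KO against 83.8% in WT under control FA, and its 9.08 points had an adjusted p of 2.33e-10 by Fisher's exact test, just under the size required. At 30 ppm Celsr1 had 89.9% and 85.7%. Prickle2 had 81.2% against 74.4% under excess FA and 81.1% against 74.2% under control FA, a gap of 6.79 and 6.92 points, which was 9.90 and 13.8 points as the mean over single CpGs. The Fzd3 flank stood lower, at 51.0% against 42.3% under excess FA and at 49.8% against 43.8% under control FA.

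None of the other 5 flanks was called. Ptk7, a pseudokinase with a receptor's build that works with Vangl2, had 87.3% in KO against 81.8% in WT under excess FA and 86.5% against 79.5% under control FA. Dvl2 had 80.2% against 76.8% under excess FA and 86.0% against 78.9% under control FA. Scrib had 91.7% against 84.8% under excess FA and 87.6% against 86.9% under control FA, so its gap was present at 30 ppm and 0.690 points at 3 ppm. Celsr2 was the flattest, between 94.2% and 94.9% in the 4 libraries. The Vangl2 flank, with 15 covered CpGs, had 45.8% against 36.6% under excess FA and 50.2% against 46.3% under control FA. Taken around its principal start, where the window takes in the stretch printed above, the Vangl2 flank had 49.6% against 30.2% under excess FA and 51.1% against 34.2% under control FA and was called at both diets.

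**Figure D3:**
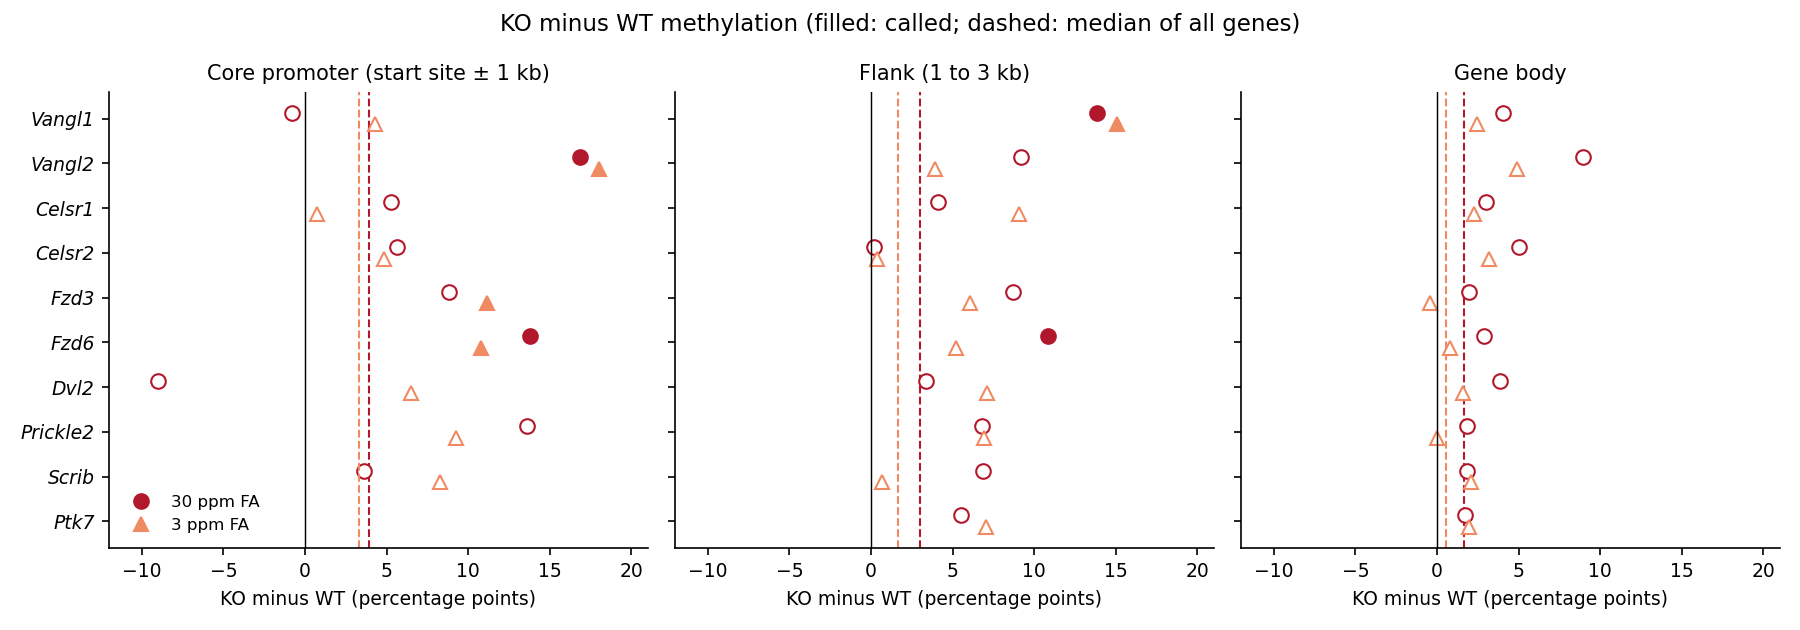
Each point is KO minus WT in percentage points at 30 ppm FA (red circles) or 3 ppm FA (orange triangles), in the core promoter, the flank and the body, and filled points were called. Dashed lines give the median over all genes, 3.93 and 3.31 points in cores and 3.01 and 1.69 points in flanks. All 10 flank pairs lie right of 0, and bodies lie within 8.97 points of it.

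Gene bodies were highly methylated and differed little. No body was called at either diet, where 2.00% of all 18024 bodies were called higher and 0.0666% lower at 30 ppm, and 1.75% higher and 0.0999% lower at 3 ppm. By adjusted p alone, 10 of 10 bodies were higher in KO at 30 ppm and 6 of 10 at 3 ppm (Fisher's exact test), beside 40.4% and 21.8% of all bodies. The bodies of the 10 genes held a median of 353 covered CpGs and 6666 reads in WT at 3 ppm, against 152 CpGs and 2431 reads over all genes, which gives the test more to count. Bodies had median differences of 2.92 and 2.02 points at 30 and 3 ppm, beside 1.65 and 0.523 points over all genes. Vangl2 stood out again, with 82.2% in KO against 73.3% in WT under excess FA and 80.9% against 76.0% under control FA. Its 8.97 points at 30 ppm became 10.5 points, past the size required, with a minimum of 10 reads. Celsr2 followed with 89.5% against 84.5% under excess FA and 88.6% against 85.5% under control FA. Vangl1 had 82.8% against 78.7% under excess FA and 82.1% against 79.6% under control FA. The other 7 bodies differed by 1.69 to 3.88 points at 30 ppm and by -0.433 to 2.24 points at 3 ppm.

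Next, excess FA was compared with control FA within each genotype. No core, flank or body of the 10 genes was called in KO or in WT. Over all genes the calls in either direction were 1.20% of cores in KO and 0.793% in WT, 0.452% and 0.594% of flanks, and 0.111% and 0.194% of bodies. The widest core values were at Prickle2 in KO, 50.0% at 30 ppm against 38.4% at 3 ppm, and at Dvl2 in WT, 49.3% against 39.3%, with adjusted p of 0.345 and 0.302 by Fisher's exact test. Bodies were lower at 30 than at 3 ppm in WT at all 10 genes, with differences from -2.99 to -0.226 points, and higher in KO at 7 of 10. Over all genes 30.6% of bodies were higher at 30 ppm in WT and 69.2% in KO. The medians were -1.02 points in WT and 0.725 points in KO, beside -0.592 and 0.521 points over all genes.

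Whether KO minus WT itself differed between the diets was asked by the Wald test, which passed 1.35% of all cores, 1.58% of flanks and 15.0% of bodies. No core or flank of the 10 genes passed. The bodies of Prickle2 and Fzd3 did (adjusted p = 1.01e-05 and 0.00619, Wald test), too few to set apart from the 15.0% of all bodies. Prickle2 had 86.1% in KO against 84.3% in WT under excess FA and 85.4% in each at 3 ppm, a gap of 1.83 against 0.0227 points over 2303 CpGs. Fzd3 had 89.6% against 87.7% under excess FA and 88.3% against 88.7% under control FA, a gap of 1.94 against -0.433 points over 424 CpGs.

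Variation between embryos entered 1 test, limma with genotype and diet as terms on log2((methylated + 1)/(unmethylated + 1)). Its residual had 1 degree of freedom and was moderated over all genes. With 1 library per group, that residual is the difference between the diets in KO minus WT on this scale. It thus mixes spread between embryos and litters and counting error with any diet dependence of the genotype difference. This test called KO against WT at 0 of 9 cores, 3 of 10 flanks and 1 of 10 bodies of the list, all higher in KO, beside 7.50%, 12.5% and 8.25% of all genes. The cores nearest to a call were Vangl2, with a log2 ratio difference of 1.05 (SE 0.27, adjusted p = 0.0601, limma), and Fzd6, with 0.97 (SE 0.27, adjusted p = 0.0718, limma). Unadjusted p was under 0.05 at 6 of the 9 cores, beside 28.9% of all cores. Without diet in the model Vangl2 was called (adjusted p = 0.0398, limma), as were 9.97% of all cores. That call was lost when any 1 of the 4 libraries was left out, where 0.517% to 4.49% of all cores were called. The flanks called were Celsr1 with 0.94 (SE 0.24, adjusted p = 0.00396, limma), Vangl1 with 0.84 (SE 0.23, adjusted p = 0.0100, limma) and Ptk7 with 0.67 (SE 0.23, adjusted p = 0.0459, limma). With a minimum of 10 reads the Ptk7 flank turned to -0.12 (adjusted p = 0.827, limma) and the call of Vangl1 was lost (adjusted p = 0.101, limma), while Celsr1 stayed called and Scrib was gained. The call of Ptk7 was also lost without diet in the model (adjusted p = 0.0607, limma) and with a pseudocount of 0.5 (adjusted p = 0.0501, limma). The body called was that of Vangl2, with 0.59 (SE 0.16, adjusted p = 0.0336, limma), and this call was lost with a pseudocount of 0.5. With genotype alone in the model, the flanks of Celsr1 and Vangl1 were called when KO at 30 ppm was left out, beside 3.83% of all flanks. No flank of the list was called without KO at 3 ppm, beside 7.17% of all flanks, or without either WT library, where almost no flank of any gene was called (0.0491% and 0.0835%). For diet limma called none of the regions of these genes, beside 0% of cores, 0.0835% of flanks and 0.699% of bodies of all genes. Unadjusted p for diet was under 0.05 at the core of Celsr1 alone among the regions of the 10 genes, beside 4.69% of cores, 4.72% of flanks and 6.04% of bodies of all genes.

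To place the differences within each locus, 785 tiles of 1 kb with at least 3 covered CpGs were taken from the gene spans and 3 kb on either side. KO was called higher in 15 tiles at 30 ppm and in 16 at 3 ppm, or 1.91% and 2.04% of them, and lower in none, though shifting the tiles by 0.5 kb gave 1 of 777 called lower at 30 ppm. Over all 1863069 tiles of the autosomes 1.13% and 1.10% were called higher and 0.0487% and 0.114% lower. In all, 25 tiles, or 3.18%, were called at either diet, beside 1.86% of all tiles. In 24 of these KO exceeded WT at both diets, the exception being an intronic tile of Prickle2. A call fixes that sign at its own diet, and in 6 of the tiles at both diets. The matching share over all called tiles was not computed. A tile called higher in KO at either diet was found in 9 of the 10 loci, which hold 18 to 314 tiles each, beside 49.9% of all gene loci, whose lengths differ, and Fzd3 had none of 72. Of the 25 tiles, 9 lay within 3 kb of a start site, where 52 of the 785 tested lay. The matching share near the start sites of all genes was not computed. At 30 ppm 15.4% of all cores and 9.50% of all flanks were called higher, beside 1.13% of all tiles. Cores and flanks are wider than tiles and were adjusted over fewer tests, so these shares are not like for like. This placement is not shown to be particular to the list.

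In 5 genes 6 tiles, or 0.764%, were called at both diets, beside 0.367% of all tiles, and 4 of these lay within 2 kb of a start site, where 33 of the 785 lay. Here too the share near the start sites of all genes was not computed. The tile over the Vangl2 start site, which is the start of the coding transcript Vangl2-202, had 53.7% in KO against 20.8% in WT under excess FA and 52.8% against 27.5% under control FA. That of Prickle2, 0.7 kb downstream of its start, had 45.0% against 15.6% under excess FA and 36.8% against 5.13% under control FA, the lowest WT level of the 6. That of Scrib, in an intron 1.3 kb downstream, had 61.5% against 34.3% under excess FA and 61.5% against 38.3% under control FA. In these 3 tiles the KO libraries were 23.3 to 33.0 points above the WT library of their diet. The tile of Fzd6, 1.5 kb downstream, had 83.1% against 67.7% under excess FA and 84.4% against 70.6% under control FA. The other pair lay deep within the genes, in an intron of Vangl1 11.2 kb downstream, with 72.1% against 48.3% under excess FA and 67.6% against 46.3% under control FA, and in Prickle2 171.7 kb downstream, where its transcript Prickle2-203 begins, with 50.0% against 23.9% under excess FA and 55.9% against 29.9% under control FA. Diet was called in 1 tile, in an intron of Ptk7 8.0 kb downstream that the gene Gm26904 overlaps. WT had 90.6% there at 30 ppm and 73.0% at 3 ppm, and KO had 94.4% and 90.5%, so the WT library at 3 ppm stood alone. Over all tiles diet was called in 0.0683% in KO and 0.0470% in WT, and the Wald test passed 0.0692% of all tiles and none of the 785, but 1 of 777 with shifted tiles and 1 of 578 with a minimum of 10 reads.

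**Figure D4:**
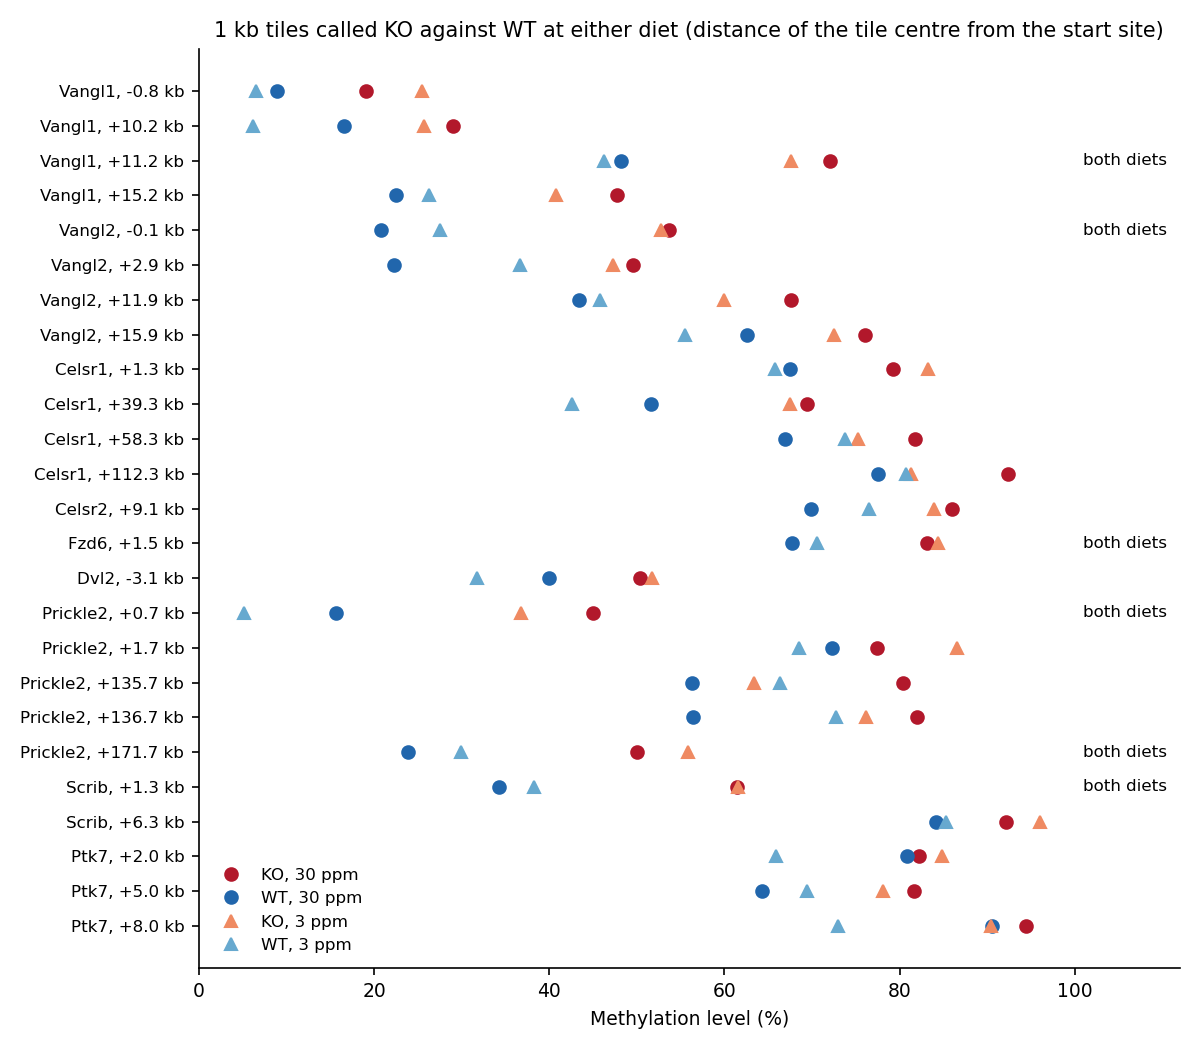
Each row is 1 of the 25 tiles called KO against WT at either diet, named by its gene and the distance of its centre from the start site in kb, with the methylation level in percent of each library. Red and orange are KO, blue is WT, circles are 30 ppm and triangles 3 ppm. The 6 tiles marked as called at both diets have both KO points right of both WT points, which the call itself requires within each diet.

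Around the start sites the levels were also read in bins of 250 bp. The bins given here lie beside or in a stretch of low methylation and were picked after the values were seen. Single bins ran the other way, as in Dvl2 1 to 1.25 kb downstream, where 1 CpG had 50.0% in KO against 92.9% in WT under excess FA and 77.8% against 73.7% under control FA. At Vangl2 the bin just upstream of the start site had 58.8% in KO against 27.3% in WT under excess FA and 61.9% against 30.4% under control FA, and the bin just downstream 53.6% against 11.9% under excess FA and 47.1% against 23.1% under control FA. Further in, 0.5 to 0.75 kb downstream, all 4 Vangl2 libraries were at or below 11.7%. At Vangl1 the edge lay 1.25 to 1.5 kb upstream, with 59.6% against 27.3% under excess FA and 67.5% against 18.8% under control FA. At Prickle2 it lay 1 to 1.25 kb downstream, with 63.8% against 30.4% under excess FA and 63.2% against 8.20% under control FA. Fzd3 showed a small gap at its upstream edge, 0.25 to 0.5 kb before the start, with 16.4% against 1.96% under excess FA and 13.4% against 2.78% under control FA. In the 6 genes plotted a bin holds 1 to 9 covered CpGs, and no test was run on bins.

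**Figure D5:**
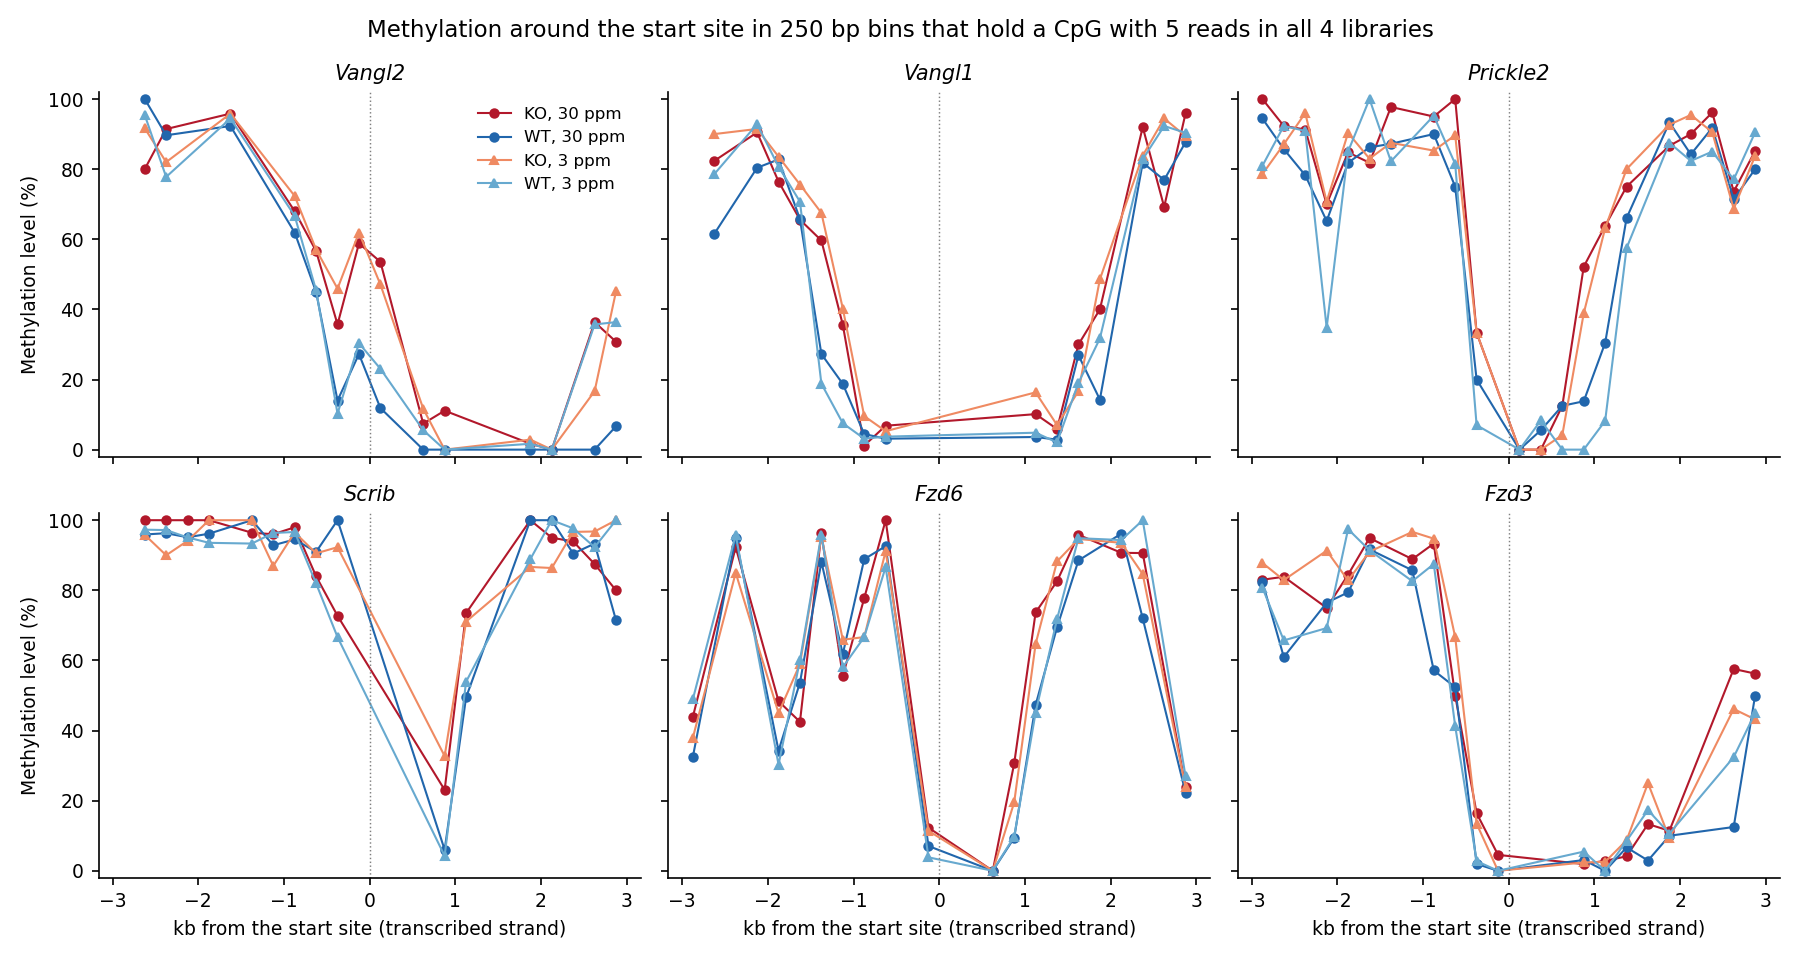
Lines join the methylation level in percent of 250 bp bins by distance in kb from the start site, along the transcribed strand, for 6 genes, and bins without a CpG of 5 reads in all 4 libraries are skipped. KO (red, orange) lies above WT (blue) at both diets in the bins given in the text for Vangl1, Vangl2, Prickle2 and Fzd3, and from 0.75 to 1.25 kb downstream at Scrib and Fzd6.

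CpG islands computed from the reference covered the start sites of 9 genes, and at Vangl2 the nearest island lay downstream of the annotated 5′ end. Of the 7 islands with covered CpGs, 6 were low, at or below 17.1% in every library. In the islands of Fzd3 and Fzd6 the KO level was the higher one, with 10.8% in KO and 1.98% in WT at Fzd3 and 17.1% and 5.60% at Fzd6 at 30 ppm. At 3 ppm these were 8.70% and 2.08% at Fzd3 and 9.40% and 3.67% at Fzd6. The values rest on 13 of 158 CpGs at Fzd3 and 10 of 91 at Fzd6. With no read minimum Fzd3 had 5.66% against 1.34% under excess FA and 5.04% against 2.27% under control FA. Fzd6 then had 11.2% against 3.98% under excess FA and 7.26% against 1.97% under control FA. The islands of Dvl2 and Prickle2 held 2 covered CpGs each. The island that was not low was that of Celsr1, which is 2.91 kb long and reaches 1.9 kb into the gene. It had 65.3% in KO against 54.2% in WT under excess FA and 64.5% against 44.5% under control FA. These levels rest on 55 of its 248 CpGs. The rest of the 3 kb window around the start stood at 88.2% to 93.9% in Celsr1. At Vangl1 the island had 10.1% against 3.60% under excess FA and 16.3% against 4.83% under control FA, and the rest of the window 50.2% against 40.9% under excess FA and 55.5% against 44.5% under control FA. The Vangl1 island value rests on 7 of 119 CpGs. With no read minimum it was 4.37% against 3.04% under excess FA and 8.31% against 2.27% under control FA.

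The authors' lists of differentially methylated regions (DMRs), called between single libraries, held 2 KO hyper DMRs in these loci at 30 ppm and 5 at 3 ppm, and no KO hypo DMR. They lay in 2 and 4 of the 10 genes, while 12.6% and 13.1% of all gene loci held a KO hyper DMR at 30 and 3 ppm. Gene loci differ in length and a longer locus can hold more regions, which these shares do not take into account. At 30 ppm they were an intron of Celsr1 (chr15:86013747-86014039) and an exon of Vangl1 (chr3:102189208-102189431). The Celsr1 region had 70.8% in KO against 28.2% in WT under excess FA and 38.0% against 33.8% under control FA, so that the KO library at 30 ppm stood alone. The Vangl1 exon had 50.6% against 11.3% under excess FA and 41.2% against 21.6% under control FA. At 3 ppm they were upstream of Vangl2 (chr1:172028682-172028784) and Vangl1 (chr3:102205805-102206065), in introns of Vangl1 (chr3:102194653-102194931) and Prickle2 (chr6:92704773-92705096), and in an exon with a UTR of Celsr2 (chr3:108392784-108393210). The Vangl2 region had 40.0% against 15.6% under excess FA and 50.8% against 14.0% under control FA, and the intron of Vangl1 45.6% against 19.4% under excess FA and 40.1% against 4.31% under control FA. The Prickle2 region had 67.1% against 41.6% under excess FA and 67.5% against 18.8% under control FA, and that of Celsr2 held 1 CpG with 5 reads. No region was listed at both diets, though KO exceeded WT at both diets in each of the 6 KO hyper regions that held more than 1 covered CpG. For diet the lists held 1 region, hyper at 30 ppm in WT, inside the Ptk7 tile above (chr17:46621387-46621599), with 97.4% at 30 ppm and 65.5% at 3 ppm in WT and 98.2% and 92.6% in KO. These regions were chosen on these libraries, so their levels carry no test.

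The pathway was also read on 39 further genes that act in it or beside it, of which 37 lie on autosomes and were tested, with Prickle3 and Gpc4 on the X chromosome left out. Cores were called higher in KO at 3 of 37 genes at 30 ppm and 5 of 37 at 3 ppm, flanks at 10 and 9 of 37, and bodies at 2 and 4 of 36, and none was called lower in KO. The shares over all genes were 15.4% and 16.6% for cores, 9.50% and 7.05% for flanks and 2.00% and 1.75% for bodies. The core counts are too few to set apart from these shares. The flank and body counts lay above theirs, which was not tested. These flanks held a median of 39 covered CpGs, against 31 over all genes, and these bodies 285.5, against 152. For diet 1 core was called in KO and 1 flank in WT, beside 1.20% and 0.594% of all genes. Their median flank difference was 6.00 and 5.29 points at 30 and 3 ppm, beside 3.01 and 1.69 points over all genes, and their median core difference 3.43 and 1.99 points, beside 3.93 and 3.31 points. Called at both diets were the cores of Daam1, a formin that binds Dishevelled, of Dchs1, a large protocadherin, and of Dvl3. Daam1 had 23.9% in KO against 9.85% in WT under excess FA and 27.0% against 12.1% under control FA, and Dvl3 had 23.4% against 6.78% under excess FA and 18.4% against 4.13% under control FA. Dchs1 rests on 3 CpGs, with 46.4% against 9.68% under excess FA and 48.0% against 20.6% under control FA. The flanks called at both diets were those of Fzd1, the ciliary effector Intu, the epidermal transcription factor Grhl3 and Cthrc1. Fzd1 had 69.9% against 47.3% under excess FA and 63.5% against 50.4% under control FA, and Intu 61.2% against 39.0% under excess FA and 61.6% against 44.8% under control FA. Grhl3, whose loss in mice leaves the spine open, had 75.4% against 59.4% under excess FA and 74.7% against 57.8% under control FA, and Cthrc1 63.5% against 50.7% under excess FA and 63.0% against 51.2% under control FA. In all 7 both KO libraries stood above both WT libraries, which their choice by calls at both diets already requires within each diet.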

How the data were processed

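WGBS libraries of 4 E11.5 brains were analysed, 1 per group, grouped by the labels. Per the study's methods and processing notes, the authors trimmed reads with Trim Galore 0.6.10, aligned them with Bismark 0.23.1 to mm10 (GRCm38.p6), removed duplicates and merged the strands. For each CpG, the deposited tables list the fraction of methylated reads and the count of reads, not normalised, and their product was the methylated count. Duplicate removal used no molecular identifiers. The deposited positions count from 0, and 1 was added, after which 15871451 of 15871451 shared autosomal CpGs lay on a CG of the reference. The authors called the deposited DMR lists with DSS on single libraries, and these hold positions only. Lists that hold the hyper and hypo autosomal regions again were not used.

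CpGs that 5 or more reads covered in all 4 libraries were summed per region of GENCODE vM21 genes, with at least 3 CpGs per region. Regions and 1 kb tiles were compared by Fisher's exact test (scipy 1.17.1), the diets' KO minus WT values by a Wald test with 0.5 added to each count, and genotype and diet by limma 3.58.1 in R 4.3.3, each adjusted over all features by Benjamini-Hochberg. Named were the 10 members, further pathway genes called alike at both diets in a core or flank, and tiles called at both diets. CpG islands had at least 200 bp, 50% GC and an observed over expected CpG ratio of 0.6. Scripts were tested on simulated data. The members and lists were chosen with earlier results of these data known. Alternatives covered the read minimum, depth, windows, start sites, tile position, sizes required and the limma model.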

Additional observations from a re-analysis of the deposited data

Results flagged for a closer look

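By the Wald test of the difference itself, KO minus WT differed between the diets in the bodies of 2 of the 10 genes. Over all genes 15.0% of bodies passed, and 2 of 10 are too few to set apart from that share. The bodies of the 10 genes also held a median of 6666 reads in WT at 3 ppm, against 2431 over all genes. In the body of Prickle2, outside 3 kb of the start site, KO stood at 86.1% and WT at 84.3% at 30 ppm, and both at 85.4% at 3 ppm (Wald adjusted p = 1.01e-05). In the body of Fzd3, KO stood at 89.6% and WT at 87.7% at 30 ppm and at 88.3% and 88.7% at 3 ppm (Wald adjusted p = 0.00619). Both gaps were under 2 points in each diet, over 2303 and 424 CpGs, and the median gap of all bodies was likewise larger at 30 ppm (1.65 points) than at 3 ppm (0.523 points). The Prickle2 gap at 3 ppm changed sign with a minimum of 10 reads, with no read minimum and after thinning. Between-embryo spread does not enter the Wald test, and its part in the result was not tested.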

How the results depend on the processing

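No paired analysis was possible because the groups share no replicate numbers beyond the single library of each, and for the comparisons of 2 libraries none could be left out. The counts of genes called at core promoters, 2 at 30 ppm and 3 at 3 ppm, were 1 and 1 within 0.5 kb of the start, 0 and 1 with a minimum of 10 reads, 1 at 30 ppm around the principal start and 1 at 3 ppm after thinning. For flanks, 2 at 30 ppm became 0 with the upstream side alone and 5 with no minimum difference, and 1 at 3 ppm became 2 around the principal start, 2 with no read minimum and 5 with no minimum difference. For bodies, 0 at 30 ppm became 1 with a minimum of 10 reads and 10 with no minimum difference, 0 at 3 ppm became 6 with no minimum difference, and 0 for diet in WT became 1. Tiles called numbered 15 at 30 ppm and 8 with a minimum of 10 reads, and 16 at 3 ppm, with 5 at a minimum of 10 reads, 6 at a difference of at least 20 points and 10 after thinning. Shifting gave 1 tile called lower in KO at 30 ppm. For diet, shifting the tiles by 0.5 kb gave 1 tile in KO instead of 0, and the 1 tile in WT became 0 when shifted, thinned, with a minimum of 10 reads or with 20 points. limma called 1 core without diet in the model instead of 0, and instead of 1 body it called 2 with a minimum of 10 reads, 0 without diet and 0 with a pseudocount of 0.5. Leaving out 1 library, chosen after seeing the data, kept 1 residual degree of freedom with genotype alone in the model and takes the lone library of a genotype to vary like the other 2. It gave 0 cores (3 to 4 of 9 at an unadjusted p under 0.05), 0 to 2 flanks (4 to 6 of 10) and 0 bodies (3 to 4 of 10) by limma. Over all genes these fits called 0.517% to 4.49% of cores, 0.0491% to 7.17% of flanks and at most 1 body, with an unadjusted p under 0.05 at 14.2% to 24.9% of regions, so the 0 bodies say nothing of these genes. Before, 3 flanks and 1 body were called with all 4 and diet in the model. Counted in gene spans alone, the DMRs at 3 ppm numbered 3 instead of 5.

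Of the values of single genes, 14 changed sign where reads were summed, and the core of Dvl2 at 30 ppm became 4.71 points as the mean over single CpGs. With a minimum of 10 reads the core at 30 ppm became 1.61 points for Dvl2, -8.97 for Fzd6 and -4.81 for Scrib, the flank -0.820 (30 ppm) and -0.828 (3 ppm) for Ptk7 and -0.329 for Celsr2 at 3 ppm, and the body of Prickle2 at 3 ppm -0.222. The Prickle2 body was -0.0118 with no read minimum and -0.165 after thinning, the Celsr2 flank at 30 ppm -0.212 after thinning, and the Fzd3 body at 3 ppm 0.0356 over the whole span. Upstream alone, the flank was -2.19 for Vangl2 and -1.01 for Celsr1 at 30 ppm and -2.81 for Scrib at 3 ppm. A minimum of 10 reads leaves fewer CpGs, and for the others the cause was not tested. Of the remaining values of single genes 295 kept their direction and, where a test was run, their side of the threshold. Among these, the untested means over single CpGs put the cores of Fzd3 (6.11) and Fzd6 (6.83) at 3 ppm and the flank of Fzd6 at 30 ppm (8.20) under 10 points. They put the cores of Scrib (10.5) and Prickle2 (11.1) at 3 ppm above 10 points. Of the others, 16 lost a call, 7 gained one (with no read minimum, the Prickle2 core at 30 ppm took the place of that of Fzd6) and 2 moved, the Dvl2 core among them. Depth limits the cores most, where 9 of 10 genes had at most 21.4% of their CpGs covered.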
